A study of Anguilla anguilla and Anguilla rostrata with 84 samples.

Results

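The 200 contigs described here were those whose measured liver transcript levels differed least among 9 laboratory treatments of European eels. They came from 992 contigs on the array. A contig is a transcript sequence assembled from sequencing reads, and each was printed in 3 spots. For each contig the mean of every treatment group was set against the mean of the 9 treatment means, and the contigs were chosen by the largest of these absolute differences, here called the largest deviation. The 60 contigs with the largest median SD within groups had been removed first, which left 732 other contigs beside the 200 stable ones. All values are log2 ratios of a fish over a common pool, so that 0 means equal signal in both and positive values mean more signal in the fish.

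Every array compared liver RNA of 1 eel with a pool made from 30 wild European eels of Certes in France, and 81 of the 84 arrays were used. The laboratory fish were European eels (Anguilla anguilla) in 10 groups of 5 fish, with 4 fish at the higher PCB level. These groups were an untreated control, food restricted to 2.5% of body weight, water of 18 per mil salinity, polychlorinated biphenyls (PCB) in food at 50 or at 300 ng/g, cadmium (Cd) in water at 0.4 or at 4 ug/L, methylmercury in food at 5 ug/g, a mixture of organochlorine pesticides (OCP) in food at 13 ng/g, and a low temperature of 13 °C. The wild fish were American eels (Anguilla rostrata) from 4 Quebec sites, the St Jean and Sud-Ouest rivers and the St Pierre and St François lakes, and European eels from 3 French sites, the Dordogne and Garonne rivers and the Gironde estuary, with 5 fish per site. Species, continent and sites cannot be told apart in this design. Control fish 5 and fish 1 at 4 ug/L cadmium were left out because their raw columns were identical to those of another fish, and low temperature fish 4 was left out by the rule that chose the contigs, so that 4 fish of each of these groups were used.

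The liver carries out much of a fish's energy metabolism, makes most plasma proteins and detoxifies foreign compounds, and its transcript levels are widely used to read out exposure to metals, organochlorines, temperature and food. Transcripts that vary little across such conditions are the usual candidates for reference genes, the genes that other measurements are scaled to. Steady levels under laboratory treatments do not by themselves say how a transcript behaves in fish of another habitat or species, which is what the control group and the wild sites measure here. No gene names accompany the contig identifiers, and 0 of them matched the gene table of the European eel assembly, so contigs are given by identifier only, the labelled tissue was not checked against marker genes, and no roles are assigned.

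By the rule, the largest deviation of the stable contigs ran from 0.0913 to 0.254, with a median of 0.204 beside 0.374 for all 992 contigs. The last contigs inside the limit were contig_8487 (0.253) and contig_28030 (0.254), both furthest from the treatment mean at 4 ug/L cadmium. The first outside it were contig_30734 and contig_22503, both at 0.254 after rounding and both furthest out in methylmercury, so the limit falls in a continuous run of values. The treatment that set the largest deviation was the higher cadmium level in 30 stable contigs, low temperature in 29 and the lower cadmium level in 27. It was OCP in 13, the fewest. These values chose the contigs and are given as a description.

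The stable contigs did not all sit at the level of the pool. Their mean over the 9 treatments ran from -0.43 in contig_3230 to 0.63 in contig_8521, with a median of 0.04, and was above 0 in 60.5% of them. In contig_35053, which had the smallest largest deviation of all, the 9 treatment means lay between 0.09 (low temperature) and 0.25 (0.4 ug/L cadmium). The second smallest, contig_16390, had a largest deviation of 0.0990 and treatment means between -0.04 and 0.13. Signal was weak in both: contig_35053 was above background in both channels on 50 of 81 arrays and on none of the restricted diet arrays, and contig_16390 on 57 arrays and on none of the control, restricted diet or 4 ug/L cadmium arrays. Above background means that the mean background-subtracted signal of the 3 spots was above 0.

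Stable contigs were on the whole dim. Their median brightness, the mean log2 intensity of both channels, was 7.27, beside 8.01 for the 732 other contigs and 9.47 for the 60 removed for their spread. When all contigs were divided by brightness into 4 groups of equal size, the dimmest held 85 of the 200 (42.5%) and the brightest 22 (11%). Only 31 of the 200 (15.5%) were above background on all 81 arrays, against 28.8% of the 732 others. The median stable contig was above background on 71 of 81 arrays, and 16 of the 200 on fewer than 50% of them.

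**Figure D1:**
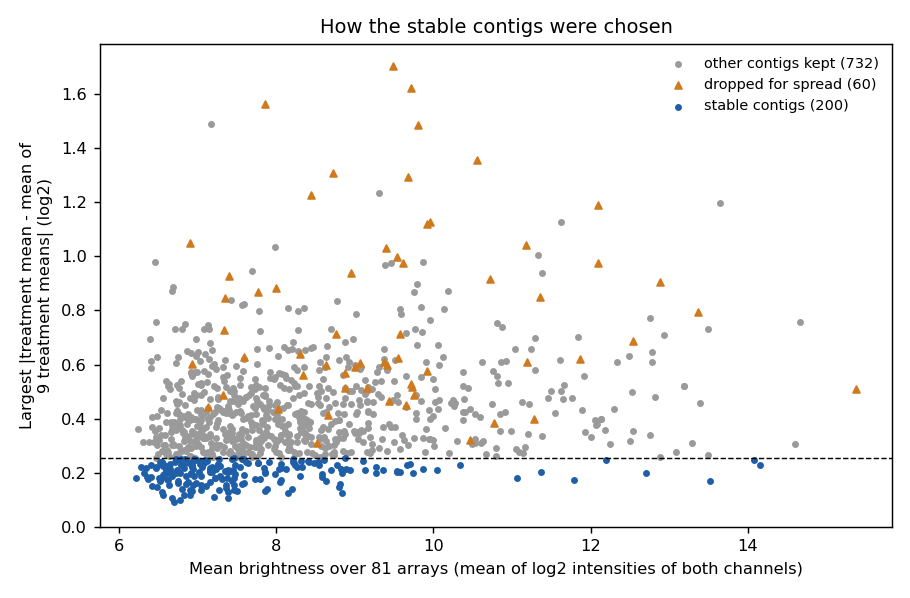
Each point is 1 of the 992 contigs, with its mean brightness over 81 arrays on the x axis and its largest deviation of a treatment mean from the mean of 9 treatment means on the y axis (both log2). The 200 stable contigs (blue) lie under the dashed limit at 0.254 and lie mostly at the dim end, and the 60 contigs removed for their spread (orange triangles) are mostly bright.

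The weak signal was uneven across groups. Under the restricted diet 90 stable contigs (45%) were above background on no array, against 28.4% of all 992. In the control group it was 42 (21%) against 11.3%, and at 4 ug/L cadmium 19 (9.5%) against 5.75%. At each of the wild sites at most 1 stable contig was in this position. For such a contig, at least 1 channel was not above background on each array of the group. The group mean is then a ratio with weak signal in 1 or both channels. In all, 94 of the 200 had at least 1 group of this kind. Among the 9 treatments 92 had one, and 90 of these lacked signal under the restricted diet. The share of stable contigs above background on an array was 22.5% to 50.5% under the restricted diet (median 38%), 40.5% to 71.5% in control fish (median 58.5%) and 66.5% to 100% in French fish (median 95.5%). The comparisons that follow are also given for contigs above background on every array, below called contigs with signal. A mean just above 0 counts as signal, so this does not by itself show detectable expression.

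The rule removed the contigs of largest SD over all groups, control and wild sites included, before the contigs were ranked. The same 200 contigs were chosen without that step. The 732 other contigs lack those removed, so the spread between fish of a group is given as a description. The median SD within the control group was 0.252 for stable contigs and 0.263 for the 732 other contigs. It was 0.217 and 0.280 over the Canadian sites, and 0.228 and 0.269 over the French sites. The SD between the 3 spots of a contig was 0.210 for stable and 0.204 for all contigs.

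Carried over to groups that had no part in the ranking, most stable contigs stayed close to their treatment mean. In the control group, 160 of 200 (80%) lay within the limit of 0.254, beside 73.8% of all 992 contigs. At the wild sites the share within the limit ran from 77% in the Gironde to 90.5% in the Dordogne, beside 62.2% and 72.1% of all contigs. At the Canadian sites it was 82.5% in St Jean, 86% in Sud-Ouest, 79.5% in St Pierre and 82% in St François, beside 68.6%, 64.6%, 59.2% and 65.2% of all contigs. The median range over the 7 site means was 0.326 for stable contigs and 0.443 for all contigs. Since members were picked partly for low spread and are dimmer, this difference in share was given no test.

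**Figure D2:**
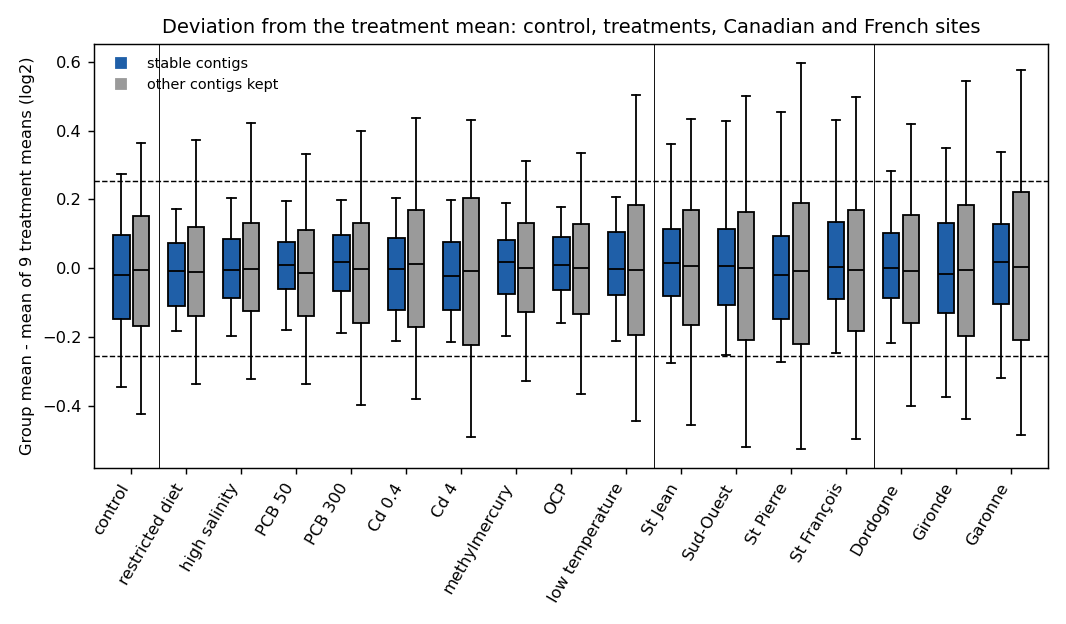
Boxes show the difference of each group mean from the mean of 9 treatment means (log2) for the 200 stable contigs (blue) and the 732 other contigs (grey), with the median, the quartiles and whiskers from the 5th to the 95th percentile. Dashed lines mark the limit of 0.254, which fixes the blue values in the 9 treatments but not in the control or at the 7 sites, where 77% to 90.5% of stable contigs lay within it.

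Of the contigs with signal on all 81 arrays, contig_34883 had the smallest largest deviation (0.126), and it was picked out after its values were seen. Its treatment means lay between -0.36 (OCP) and -0.15 (low temperature). The 4 control fish read between -0.38 and -0.0037, with a mean of -0.13 ± 0.17 (SD, n = 4). The 20 Canadian fish ran from -0.51 through a median of -0.29 to 0.39, and the 15 French fish from -0.78 through -0.31 to 0.81. The groups overlapped throughout, and contig_34883 passed the test in no comparison. Its Canadian minus French difference was 0.03 ± 0.10 (limma SE, adjusted p = 0.927).

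The first question was whether contigs with small deviations among the laboratory treatments also differed little across the wild sites. The study chose these sites along a contamination gradient. For the 92 stable contigs above background on no array of at least 1 treatment, a small deviation cannot be told from weak signal. A limma F test over the 7 site means of 35 wild fish called 7 of the 200 stable contigs at an adjusted p under 0.05 (3.5%), beside 5.85% of all contigs tested. The 2 with the widest range of site means were contig_21288 (1.57) and contig_9814 (1.55). Without background subtraction the count was 3, and with the spread estimated over all 81 fish it was 11. Leaving out fish 4 or fish 5 of Sud-Ouest, or fish 1 of the Gironde, brought it to 4. Such counts under other settings, here and below, are given without the share of all contigs called in the same setting. They do not show whether stable contigs moved more than other contigs. All 7 called contigs lacked signal on at least 1 of the 81 arrays, laboratory arrays included. On the 35 wild arrays that this test used, contig_7894, contig_9814, contig_8521 and contig_21288 had signal on all 35. The count was 34 for contig_16203 and 33 each for contig_16722 and contig_33324. Of all contigs with signal on all 81 arrays, 7.27% were called.

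In contig_21288 the site means were high at some sites and low at others within both countries, although single fish crossed over. The 5 Sud-Ouest fish read 2.46, 1.13, 0.13, 1.86 and 1.26, the highest site mean (1.37 ± 0.87, SD, n = 5). The 5 Dordogne fish read 0.90, 0.17, 1.11, 1.20 and 0.80, with a mean of 0.84 ± 0.41. The 5 Gironde fish read 0.93, -0.61, -0.70, -0.36 and -0.28, and their mean of -0.20 ± 0.66 was the lowest. Single treated fish of this contig were also spread, although its largest deviation was 0.251. The 42 treated fish ran from -0.35 through a median of 0.15 to 2.14, and the SD over the 5 methylmercury fish was 0.99. The range over the 7 sites passed the F test (adjusted p = 0.00559, limma) and kept that call without any single fish. The range over the 3 French sites alone (1.04) was not called. There the smallest adjusted p of any stable contig was 0.0675 (limma F test). The Dordogne contrast with the other French sites was not called either (smallest adjusted p of any stable contig 0.107, limma). All 5 St François fish lay between -0.12 and 0.02, below each of the other 15 Canadian fish, which ran from 0.13 to 2.46. Its St François mean was lower than that of the other 3 Canadian sites by a log2 difference of -1.05 ± 0.27 (SE, adjusted p = 0.0477, limma). That second call was lost in 14 of 20 fits that left out 1 Canadian fish. It was also lost without background subtraction (difference -0.53, adjusted p = 0.191), under median centring (0.0712), under scaling (0.0816) and in the values processed by the authors (0.0797).

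In contig_9814 the Sud-Ouest fish stood apart. They read 0.53, 0.58, 3.68, 1.87 and 1.35, with a mean of 1.60 ± 1.29 (SD, n = 5). The means of the other 6 sites lay between 0.05 ± 0.11 (Dordogne) and 0.60 ± 0.54 (St Pierre). The difference from the other Canadian sites was 1.15 ± 0.28 (SE, adjusted p = 0.0309, limma), with all 5 fish above the mean of the others, although 2 of the 5 overlapped the other Canadian fish. Without Sud-Ouest fish 3 the difference was 0.63, and the call was lost without fish 3, fish 4 or fish 5 of that site, St Jean fish 4 or St François fish 3. It was also lost without background subtraction (adjusted p = 0.294) and under median centring (0.0625). The F test over the 7 sites (adjusted p = 0.0321) lost its call without Sud-Ouest fish 3, 4 or 5 and without background subtraction (0.271).

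In a limma contrast of 4 Canadian against 3 French site means, 6 of 200 stable contigs differed (3%), beside 3.53% of all contigs. Species, continent and site change together in this contrast, and its spread comes from fish within sites. Of the 200 contigs, 5 were higher in Canadian fish and 1 was lower, beside 14 (1.41%) and 21 (2.12%) of all 992 contigs. With median centring in place of loess the count was 19, with 13 higher and 6 lower. With site as a random block, which lets fish of a site be correlated, it was 1, and in the values processed by the authors it was also 1. The split under scaling between arrays was 5 higher and 2 lower. Of the 31 stable contigs with signal on every array 1 was called, beside 4% of all such contigs.

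The contig lower in Canadian fish was contig_16203. The 20 Canadian fish ran from -0.73 through a median of -0.25 to 0.24, and the 15 French fish from -0.21 through 0.26 to 0.79. All 4 Canadian site means were below 0, from -0.37 ± 0.19 in St Jean to -0.10 ± 0.38 in St François, and all 3 French site means were above 0, from 0.19 ± 0.27 in the Garonne to 0.36 ± 0.25 in the Gironde. The ranges of the fish overlapped, but 20 of 20 Canadian fish lay below the French mean. The log2 difference was -0.53 ± 0.10 (SE, adjusted p = 0.00124, limma), and it was also called with site as a random block (adjusted p = 0.00627) and without any single fish. It was -0.19 without background subtraction, still called, and -1.06 in the values processed by the authors, where the adjusted p was 0.0565.

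Among those higher in Canadian fish, contig_4001 was the one in which 20 of 20 Canadian fish lay above the French mean. Canadian fish ran from 0.07 through 0.45 to 1.34 and French fish from -0.51 through -0.06 to 1.09. The highest French reading was Garonne fish 4, and the other 14 French fish reached 0.40 at most. The difference was 0.48 ± 0.12 (SE, adjusted p = 0.0262, limma). It was called without any single fish but not with site as a random block (adjusted p = 0.0896), without background subtraction (adjusted p = 0.415) or in the authors' processed values (adjusted p = 0.373).

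**Figure D3:**
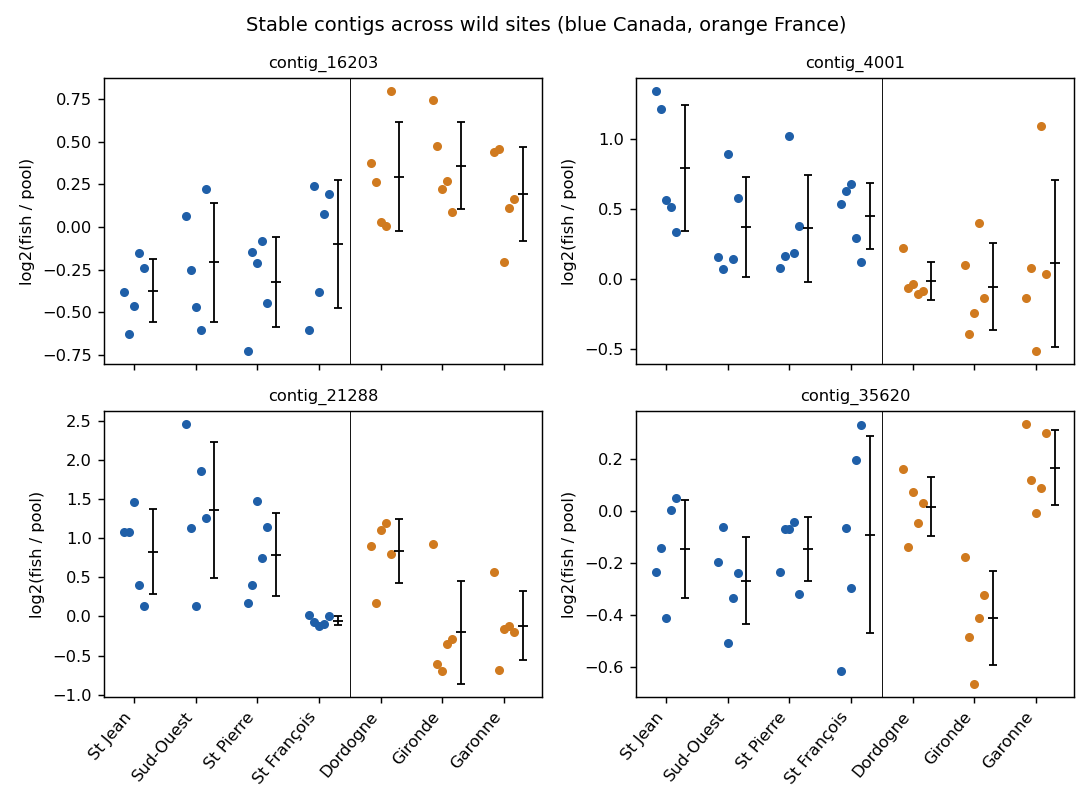
Points are single wild fish of 4 stable contigs by site (blue Canadian, orange French), on the y axis as log2 of fish over pool, with the site mean and SD (n = 5) as black bars. Contig_16203 is below 0 on average at the 4 Canadian sites and above 0 at the 3 French ones, contig_4001 is higher on average at each Canadian site than at each French one, St François is low in contig_21288, and the Gironde is low in contig_35620.

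Within countries few stable contigs passed. Among the 4 Canadian sites, 1 of 200 did (0.5%), beside 2.92% of all contigs, and it was contig_39153. Its St François fish read 1.17, 0.05, 1.27, 0.65 and 0.22, with a mean of 0.67 ± 0.55, while the other 3 site means lay between -0.10 and 0.14. St François exceeded the other Canadian sites by 0.62 ± 0.14 (SE, adjusted p = 0.0191, limma), although 2 of its 5 fish lay within their range. This contrast lost its call without St François fish 1, 3 or 4 (limma adjusted p up to 0.176). The contrast was also not called without background subtraction, under median centring or in the values processed by the authors (limma adjusted p up to 0.493). The range over the 4 sites lost its call without fish 1, 3 or 4 of St François or fish 1 or 2 of St Jean (adjusted p up to 0.17). It was also lost without background subtraction (adjusted p = 0.308), under median centring (0.168), under scaling between arrays (0.0521) and in the values processed by the authors (0.304).

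Among the 3 French sites 0 of 200 passed the limma F test, beside 0.302% of all contigs, and 20 stable contigs (10%) had an unadjusted p under 0.05, beside 12.3% of all contigs. When each site was set against the others of its country, 5 stable contigs were called. These were 1 in Sud-Ouest (contig_9814; 0.806% of all contigs were called there), 2 in St François (contig_21288 and contig_39153; 1.01%) and 2 in the Gironde (1.11%). There were 0 calls in St Jean and St Pierre (0.706% of all contigs in each), in the Dordogne (0.101%) and in the Garonne (0%), by limma. At an unadjusted p under 0.05 these 4 sites had 16, 9, 15 and 13 stable contigs (8%, 4.5%, 7.5% and 6.5%), beside 11.4%, 10.3%, 8.67% and 8.06% of all contigs. All 5 called contigs lacked signal on at least 1 array, laboratory arrays included. On the Canadian arrays that these contrasts compared, contig_9814, contig_21288 and contig_39153 had signal on all 20. On the French arrays, contig_35620 had signal on 14 of 15 and contig_16722 on 13 of 15.

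Both calls in the Gironde, the estuary that the 2 French rivers run into, were lower readings, beside 0.504% of all contigs lower there. In contig_35620 the 5 Gironde fish read -0.18, -0.48, -0.66, -0.41 and -0.32, all below the 10 Dordogne and Garonne fish, which ran from -0.14 to 0.33. The difference was -0.50 ± 0.12 (SE, adjusted p = 0.0205, limma). In contig_16722 the Gironde fish read -0.36, -0.50, -0.33, -0.29 and 0.24 against -0.21 to 0.72 in the rivers, with a difference of -0.61 ± 0.15 (adjusted p = 0.0205). One Gironde fish, fish 5, lay inside the range of the river fish. Both contigs are dim, with signal on 61 of 81 arrays each, and without background subtraction the differences were -0.11 and -0.11 (adjusted p = 0.543 for each). The call in contig_35620 was lost without fish 2, 3 or 4 of the Gironde, and that in contig_16722 without fish 1, 2, 3 or 4. Both were also lost under median centring (adjusted p = 0.162 and 0.504) and in the values processed by the authors (0.163 for each).

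The second comparison asked whether the treated fish as a whole had moved away from untreated ones while staying close to each other. In limma, 0 of 200 stable contigs differed between the control and the mean of the 9 treatments, beside 0% of all contigs. At an unadjusted p under 0.05 there were 29 stable contigs (14.5%), beside 14% of all contigs. The median absolute difference was 0.12 in stable and 0.15 in all contigs, with a median SE of 0.14 and 0.16. The count rose to 8 without control fish 1 and to 4 without control fish 2. It was 7 in the authors' processed values, all lower in the control, and 5 when the spread was estimated over all 81 fish. The treated fish are those whose values chose the contigs.

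The third comparison set wild French eels, of the same species as the laboratory fish, against the treated fish. In limma, 30 of 200 stable contigs differed (15%), beside 29.8% of all contigs, with 15 higher and 15 lower in the wild fish, beside 16.1% and 13.7% of all contigs. The treated fish chose the contigs, and all contigs include the 60 removed for spread. How far the choice sets the lower share was not tested, and the lower share is not read as a property of the stable contigs. Among the 732 other contigs the share was 32.5%. The median absolute difference was 0.08 in stable contigs and 0.15 in all contigs, and among the 30 called it was 0.26. Under median centring 14 were called, 9 higher and 5 lower. In the values processed by the authors 22 were called, of which 17 were higher and 5 lower. Among the 31 stable contigs with signal on every array 4 were called (12.9%), beside 42.2% of all contigs with signal on every array. Habitat, origin of the fish and any difference in handling between wild and laboratory fish cannot be told apart. The spread in this contrast comes from fish within groups, and no fit with site as a random block was run for it.

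In contig_12783 all 15 French fish lay below the mean of the treated fish. The treated fish ran from 0.07 through 0.41 to 0.94, and the French fish from -0.26 through 0.09 to 0.38. The difference was -0.33 ± 0.07 (SE, adjusted p = 8.97e-05, limma), and it was called under each of 7 other ways of processing or fitting, from -0.15 without background subtraction to -0.56 in the authors' processed values. The treatment means of this contig themselves ran from 0.22 ± 0.13 (low temperature) to 0.60 ± 0.13 (300 ng/g PCB). The 4 control fish read 0.39, 0.82, 0.21 and 0.53, so that they shared the level of the treated fish.

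In contig_14665, also lower in all 15 French fish, the difference was -0.20 ± 0.08 (adjusted p = 0.039, limma). Treated fish ran from -0.73 through 0.16 to 1.04 and French fish from -0.40 through -0.0037 to 0.16. Signal was above background on 23 of 42 treated arrays, and the adjusted p was between 0.0376 and 0.377 under the alternatives. The call was lost without fish 5 at 4 ug/L cadmium, fish 1 or 4 of the Dordogne, fish 4 of the Gironde, or fish 2 or 4 of the Garonne.

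No stable contig higher in French fish had all 15 on 1 side of the treated mean. The smallest adjusted p among them belonged to contig_19526, named here after its values were seen. Treated fish ran from -0.85 through -0.39 to 0.11 and French fish from -0.43 through -0.04 to 0.36, with 13 of 15 above the treated mean. The difference was 0.31 ± 0.07 (SE, adjusted p = 0.000337, limma). Canadian fish of this contig read like the French, from -0.37 through 0.03 to 0.51. The 4 control fish read -0.47, -0.91, -0.72 and -0.86, below all 15 French fish.

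The stable contig with the highest treatment mean, contig_8521, was also lower in French fish. Picking it for that mean favours a lower value in other groups. Its contrast with the same treated fish is therefore given as a description. Treated fish ran from -0.42 through 0.68 to 1.98, and French fish from -0.45 through -0.06 to 0.72. The 5 Gironde fish read -0.45, 0.06, -0.06, -0.09 and -0.35, and the 5 Dordogne fish 0.08, 0.59, 0.40, 0.34 and 0.60. The difference from the treated fish was -0.56 ± 0.13 (SE, adjusted p = 0.000949, limma), with 14 of 15 fish below the treated mean. The same contig was higher in Canadian than in French fish by 0.51 ± 0.14 (adjusted p = 0.0335), and the 2 comparisons share the French fish. The treatment means of contig_8521 ran from 0.39 (OCP) to 0.86 (low temperature). Its spread between fish was uneven: at 0.4 ug/L cadmium the SD over 5 fish was 0.84 and at 4 ug/L it was 0.05 over 4 fish.

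Against the 4 control fish alone, 20 of 200 stable contigs differed in limma (10%), beside 21.2% of all contigs, with 12 higher and 8 lower in the French fish, beside 12.5% and 8.67% of all contigs. This comparison shares the French fish with the one against the treatments. Its spread also comes from fish within groups, and it too had no fit with site as a random block. The count depended on single control fish: it was 7 without control fish 4, with 6 of the 20 still called, and 11 without control fish 3, with 10 still called. Under median centring 10 were called, 4 higher and 6 lower, and under scaling between arrays 12, with 6 in each direction. In the values processed by the authors the count was 34, among fewer contigs, since 130 of the 200 had all 9 treatment means there.

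The 2 largest falls came from 1 array. In contig_8596 the 4 control fish read 0.29, 0.28, 0.38 and 8.05, and in contig_16864 they read -0.32, -0.05, 0.12 and 8.91. In both, all 3 fish spots of control fish 4 were saturated, while the pool spots of that array lay at most 104.5 intensity units above background, and neither contig was saturated on any other array. The fitted differences were -2.07 ± 0.48 (adjusted p = 0.00131) and -2.02 ± 0.55 (adjusted p = 0.00592) in limma. Without control fish 4 they were -0.14 (adjusted p = 0.705) and 0.23 (adjusted p = 0.466). On that array 7 of the 992 contigs had all 3 fish spots saturated, 6 of them on no other array, and 2 of these were stable contigs. In contig_23171 the same fish read -2.09 beside 0.12, -0.02 and -0.26, and the French excess of 0.81 ± 0.18 (adjusted p = 0.00104) was 0.29 without it (adjusted p = 0.231). On that array the 3 pool spots of contig_23171 lay 2884 to 3044 units above background, and its fish spots 760 to 1040. On the other control arrays its pool spots lay at most 57 units above background. Only 1 of the 4 control arrays was above background in both channels for this contig. The cause was not tested.

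The other named increase, contig_30736, rested on 2 control fish. The control fish read -0.03, 0.00066, -1.38 and -1.25, and only 1 of the 4 was above background in both channels. French fish ran from -0.20 through 0.04 to 0.57. The difference was 0.76 ± 0.17 (SE, adjusted p = 0.000564, limma). It was 0.53 without control fish 3 and 0.57 without control fish 4, and was called in both cases (adjusted p = 0.0416 and 0.0393). In contig_19526, with signal on all 4 control arrays, French fish exceeded the control by 0.69 ± 0.13 (adjusted p = 5.77e-05), and the 2 groups did not overlap.

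**Figure D4:**
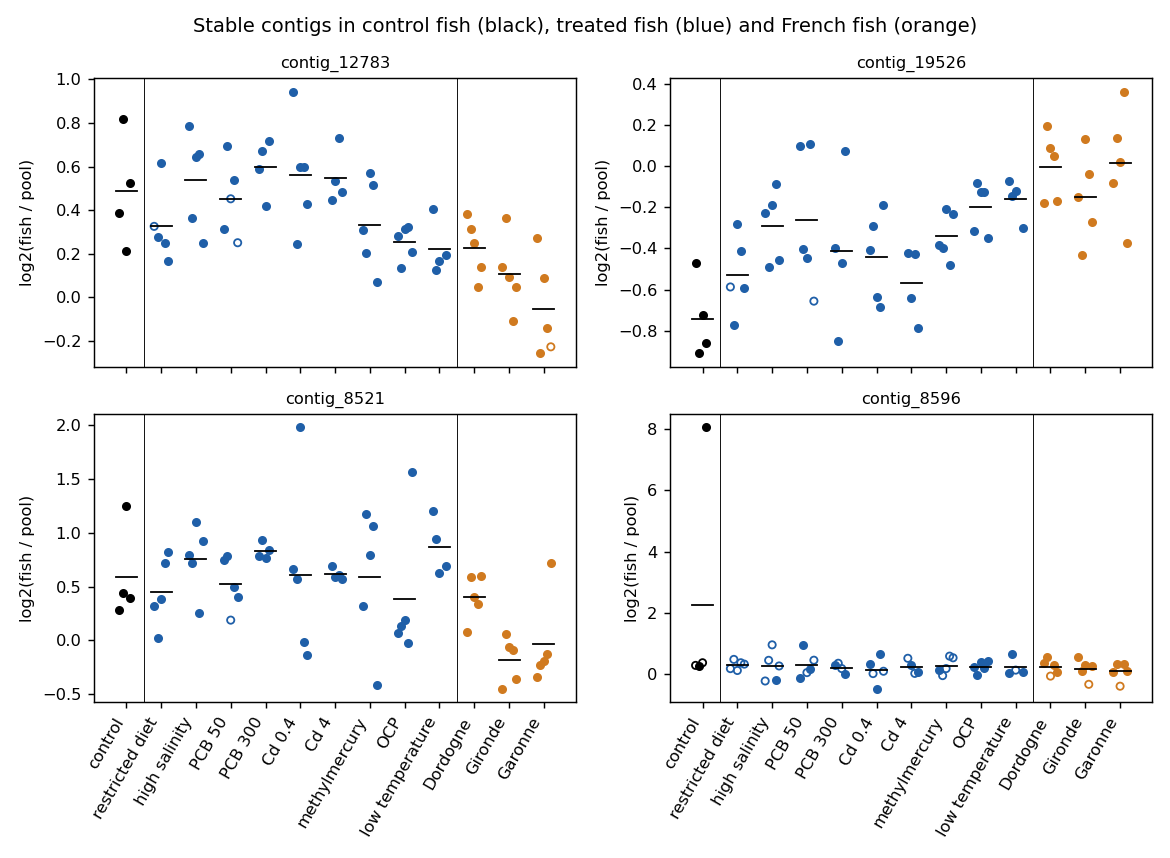
Points are single fish of 4 stable contigs in the control (black), the 9 treatments (blue) and the 3 French sites (orange), on the y axis as log2 of fish over pool, with open circles for readings not above background in both channels and a bar for each group mean. Contig_12783 and contig_8521 are lower and contig_19526 is higher in French than in treated fish, and contig_8596 reads 8.05 in 1 control fish and under 1 in every other fish drawn.

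Over all comparisons, 51 stable contigs (25.5%) passed the test in at least 1, beside 40.4% of all 992 contigs. Of the 31 with signal on every array, 8 passed in at least 1 (25.8%), beside 50.9% of all contigs with such signal. Part of these comparisons use the treated fish that chose the contigs. The contrast of French with control fish called 5 of the 31 (16.1%), beside 26.9% of all contigs with signal on every array.

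Which contigs counted as stable depended on how the arrays were processed. When the rule was applied again, scaling between arrays kept 76.5% of the 200, no background subtraction 55%, median centring 51% and the values processed by the authors 17%. Dropping 1 treated fish at a time kept 87% to 98%, with the lowest share without fish 2 at 4 ug/L cadmium. Including low temperature fish 4 kept 91.5%, and omitting the step on spread kept all 200. In the authors' processed values the contigs chosen were brighter (median 9.17), 23 of the 200 were removed for spread, and the median largest deviation of the 200 was 1.27, above the 1.05 of all contigs, over the 130 and 754 contigs that had all 9 means.

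Only contig_20582 and contig_13949, named here after their values were seen, were chosen in all 5 processings (the one described and those without background subtraction, with median centring, with scaling and by the authors). In contig_20582 the treatment means ran from -0.03 to 0.19, the control read -0.20 ± 0.11 (SD, n = 4), and the Canadian and French means were 0.22 and 0.17. It passed in 1 comparison, being higher in French fish than in the control by 0.37 ± 0.14 (SE, adjusted p = 0.0486, limma). In contig_13949 the treatment means ran from 0.0029 to 0.32, the control read 0.14 ± 0.25, and the Canadian and French means were 0.26 and 0.19. It had signal on all 81 arrays and passed in no comparison.

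**Figure D5:**
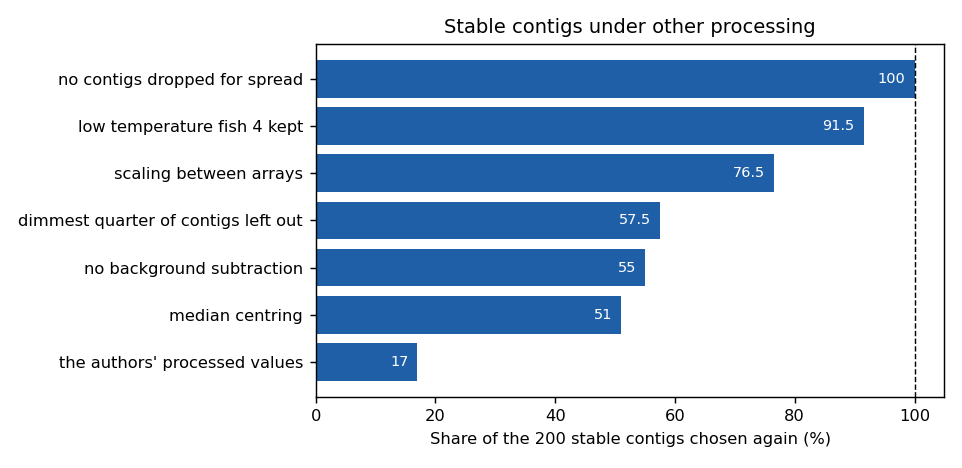
Bars give the share of the 200 stable contigs (%) chosen again when the same rule was run on values processed in another way. The share was 100% with no contigs removed for spread, 91.5% with low temperature fish 4 kept and 76.5% with scaling. It was 55% without background subtraction, 51% with median centring and 17% in the values processed by the authors. With the dimmest contigs left out it was 57.5%, a share set by the removal. The contigs left out held 42.5% of the 200, and all the other stable contigs were chosen again.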

How the data were processed

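Liver RNA of each fish carried Cy3 and the pool Cy5, per the labels' protocols. The authors deposited spot intensity values of both channels, with the local background in separate columns and no correction applied, per the file headers. The sources used here do not name the scanner or its software. They also deposited log2 ratios of fish over pool per contig, centred on each array's median; 80 of 84 such columns were recomputed from the raw columns to within 0.001. Raw columns of control fish 5 equal those of high salinity fish 4, and those of fish 1 at 4 ug/L cadmium equal those of fish 4 at 0.4 ug/L. Restricted diet fish 2 and 3 are exchanged between the files.

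In limma 3.58.1 (R 4.3.3), background was corrected by normexp with an offset of 50, each array was normalized by loess, and the 3 spots of a contig were averaged. Models with a mean per group (lmFit, eBayes) were fitted to 992 contigs, over 35 wild fish, 46 laboratory fish or all 81 for comparisons across them, with Benjamini-Hochberg adjustment within each comparison and a threshold of 0.05. Precision is limited by the number of arrays, and each slide held 1 array. Contigs were named by a rule: called, all fish of one group beyond the other group's mean in the same direction, and at most 2 rises and 2 falls per comparison; for F tests the 2 with the widest range; and those at the extremes of the choice. The text says where another contig was named after its values were seen. The contigs, rules and lists were chosen with earlier results of these data known. The fits were tested on simulated data. No values of other samples were present.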

Additional observations from a re-analysis of the deposited data

Results flagged for a closer look

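Dixon's gap test was run on 77 groups of values. These were readings of named stable contigs and, for each of the 17 groups of fish, each fish's median absolute deviation over the stable contigs. Of the 77, 7 held 1 fish far from the others of its group. Chance gives this in about 1 of 20 groups of values that were not selected. The contigs here were named from these same readings, so the count is not read against that rate. All 7 were readings of named contigs. In the control group these were control fish 4 in contig_8596 (8.052, others 0.28 to 0.38), in contig_16864 (8.911, others -0.32 to 0.12) and in contig_23171 (-2.095, others -0.26 to 0.12). In wild fish they were Gironde fish 3 in contig_9814 (-0.07449, others 0.31 to 0.42), Gironde fish 1 in contig_21288 (0.9276, others -0.70 to -0.28), Dordogne fish 1 in contig_4001 (0.221, others -0.11 to -0.03) and Gironde fish 5 in contig_16722 (0.2352, others -0.50 to -0.29). Low temperature fish 4, which no comparison used, had a median absolute deviation of the stable contigs from their treatment mean of 0.276, beside 0.106 to 0.225 in the 4 control fish and 0.120 to 0.178 in the other low temperature fish.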

How the results depend on the processing

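No paired analysis was possible because the labels give fish identifiers and no replicate numbers that groups share, and no slide block was possible because each slide held 1 array. Counts of called stable contigs that moved by over 1.5 times follow, each with the reported count first. The share of all contigs called in the same setting is not set beside them. They therefore do not show whether stable contigs moved more than other contigs. In the authors' values 130 of the 200 had all 9 treatment means, so fits that included the laboratory groups tested fewer stable contigs. Wild sites overall (7) gave 3 without background subtraction and 11 with the spread over all 81 fish. Canadian against French sites (6) gave 19 with median centring, 1 in the authors' processed values, 10 over all 81 fish and 1 with site as a random block (consensus correlation 0.0527). Sites within Canada (1) gave 3 without background subtraction, 2 in the authors' values, 2 without the dimmest contigs and 3 over all 81 fish, and sites within France (0) gave 1 over all 81 fish. Single sites (5 calls) gave 0 with median centring, 2 in the authors' values, 3 without the dimmest contigs and 9 over all 81 fish. Among the dimmest contigs left out were contig_35620 and contig_16722, so their calls were not tested in that setting. Control against treatments (0) gave 7 in the authors' values, 1 without the dimmest contigs and 5 over all 81 fish. French fish against treatments (30) gave 14 with median centring, and against the control (20) gave 10 with median centring, 34 in the authors' values and 12 with scaling. Choosing the contigs again kept 55% of them without background subtraction, 51% with median centring and 17% in the authors' values. Without the dimmest contigs it kept 57.5%, a share set by the removal. The contigs left out held 42.5% of the 200, and all the other stable contigs were chosen again. Leaving out 1 fish gave 4 to 9 calls over the wild sites, 4 to 8 between countries, 0 to 3 within Canada, 0 to 1 within France (1 without Gironde fish 1, Gironde fish 5 or Garonne fish 5), 2 to 8 for single sites, 0 to 8 for the control, 25 to 33 for French fish against treatments, 7 to 22 against the control, and 87% to 98% of the contigs chosen again. For single sites the count was 2 without St François fish 3, 8 without St Pierre fish 1, and 3 without Sud-Ouest fish 4 or 5, St François fish 1 or 4, or Gironde fish 2, 3 or 4. Within Canada it was 3 without St Pierre fish 1 or 4, and 2 without St Jean fish 5, Sud-Ouest fish 1, 2 or 3, or St Pierre fish 2 or 5. For the control it was also 1 without restricted diet fish 2, fish 5 at 50 ng/g PCB or fish 4 at 4 ug/L cadmium. The 16 named results had 533 values under alternatives and left-out fish, most of them from fits that left out 1 fish. Of these, 455 kept the call, 76 lost it without a reversal and 2 reversed. Direction was compared only for contrasts, since an F test has none. Under other processing or fits, the call was lost in 5 of 6 settings for contig_14665 and in 0 of 7 for contig_12783. Of the 2 reversals, contig_16864 ran from -2.847 to 0.229 over fits that left out 1 fish, and was 0.229 without control fish 4. The other was contig_23171, at -1.295 in the authors' processed values. The cause was not tested. Weak signal limits the values of the 94 stable contigs that had a group with no array above background.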
